A study of Mus musculus with 7 samples.

Results

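Genes of the blood vessel lining and its growth signals were followed in bulk RNA-seq of sorted mouse skin cells that express the red reporter tdTomato: the junction molecules Pecam1 and Cdh5, the clotting factor Vwf, the VEGF receptors Kdr, Flt1 and Flt4, the angiopoietin receptors Tek and Tie1, and the angiopoietins Angpt1 and Angpt2. They were taken by gene name from the deposited table, and all 10 were found among its 25322 genes. There were 4 libraries of Zfp750 knockouts (Zfp750_KO), set against 3 of controls. Zfp750 (ZNF750 in human) encodes a transcription factor that drives the last steps of keratinocyte differentiation. All mice carried 1 allele of a tamoxifen-inducible Cre recombinase under Lrig1, a stem cell gene of the upper hair follicle, and as pups received 4-hydroxytamoxifen, either from day 4 to 7 or from day 5 to 8, with samples taken on day 36. The knockouts are given as Zfp750 fl/fl, 3 of them Rosa26 +/- and 1 Rosa26 -/-. The controls are given as Rosa26 +/-, 2 of them wt/fl and 1 wt/wt for Zfp750. The libraries are called by the short names of the table's columns, Zfp750_KO 1M, 2M, 3F and 6F and control 4F, 4M and 7F, which match no single sample label, so the Rosa26 -/- knockout and the wt/wt control could not be tied to columns. Values of single libraries stand below in the order 1M, 2M, 3F, 6F for Zfp750_KO and 4F, 4M, 7F for controls. No source names a separate animal for each library, though the genotypes differ within both groups. The p-values therefore measure the spread between libraries, which may be partly technical.

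As background, VEGF-A drives the growth of blood vessels through Kdr (VEGFR2), its main signalling receptor. Flt1 (VEGFR1) binds VEGF-A and placental growth factor with little signal of its own and also has a secreted form that traps them, while Flt4 (VEGFR3) binds VEGF-C and VEGF-D and serves the lymphatic lining. Tek (TIE2) is held active by Angpt1, made largely by cells around the vessel, which keeps vessels quiet and tight. Angpt2, stored with Vwf in the Weibel-Palade bodies of endothelial cells, mostly opposes Angpt1 and rises in inflamed and remodelling vessels.

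Promoter sequences are shown for Flt1, Tek and Tie1: Flt1 and Tek lay on opposite sides of their controls in the data below, and Tie1 is the partner receptor of Tek. RefSeq (GRCm38.p6) windows from 250 bases before to 50 bases after the gene start were matched by symbol for 5 of the 10 genes. Capitals mark the words AGGAAG and CGGAAG on either strand, a common core of sites of ETS factors, a family known to act at endothelial promoters. The windows are chr5:147725962-147726261 on the minus strand, chr4:94739039-94739338 on the plus strand and chr4:118489800-118490099 on the minus strand.
Flt1 promoter: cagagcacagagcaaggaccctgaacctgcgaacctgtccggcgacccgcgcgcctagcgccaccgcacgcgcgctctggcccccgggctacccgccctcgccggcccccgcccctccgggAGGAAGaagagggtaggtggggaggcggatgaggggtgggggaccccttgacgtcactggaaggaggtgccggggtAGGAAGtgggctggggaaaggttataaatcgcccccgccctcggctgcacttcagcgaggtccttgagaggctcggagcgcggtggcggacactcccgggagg
Tek promoter: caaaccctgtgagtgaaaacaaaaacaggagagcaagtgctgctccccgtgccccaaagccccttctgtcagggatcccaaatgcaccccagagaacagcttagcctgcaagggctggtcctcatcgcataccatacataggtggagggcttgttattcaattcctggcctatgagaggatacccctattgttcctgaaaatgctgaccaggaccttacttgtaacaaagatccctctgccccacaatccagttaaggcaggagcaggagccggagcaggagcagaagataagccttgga
Tie1 promoter: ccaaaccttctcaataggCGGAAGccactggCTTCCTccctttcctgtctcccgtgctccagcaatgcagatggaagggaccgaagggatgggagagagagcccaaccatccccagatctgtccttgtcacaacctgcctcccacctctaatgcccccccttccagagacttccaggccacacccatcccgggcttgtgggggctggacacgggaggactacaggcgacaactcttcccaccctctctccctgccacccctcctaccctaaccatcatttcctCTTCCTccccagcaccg
The Flt1 window held 2 such words, which begin 129 and 53 bases upstream of the start. The Tie1 window held 3, and the windows of Tek, Kdr and Flt4 held none. Of 32851 windows of this length, 46.5% held at least 1 and 15.9% at least 2, so a match is common. These matches are a description of letters and not of binding.

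The deposited values are normalized counts, reads per gene scaled between libraries by the authors, and the size of their smallest steps puts the libraries at 9.09 to 17.1 M reads. Zfp750 itself had normalized counts of 48.9, 45.4, 10.1 and 29.6 in Zfp750_KO, against 335, 51.2 and 61.9 in controls, and was lower in every knockout library than in any control (two-sided exact permutation p = 0.0571, the smallest that 35 splits allow). The log2 difference was -1.47, and -0.70 without control 4F. Which exons the floxed allele loses is not given in the sources used here. RNA of leukocytes, fibroblasts and keratinocytes differed widely within both groups. A macrophage score, the average of 21 macrophage and monocyte genes on the log2 scale, was 7.56, 7.25, 11.2 and 10.9 in Zfp750_KO and 6.06, 10.1 and 10.3 in controls. Col1a1, a collagen of fibroblasts, stood at 5483 to 81016 per M of the library total, Krt5, a keratin of basal epidermis, at 67.5 to 1112 per M. Endothelial RNA was a small part of every library. Cdh5, the defining cadherin of endothelial junctions, was at 10.1 to 41.1 per M, the claudin Cldn5 at 1.11 to 9.23 per M and the sialomucin Emcn at 0.401 to 3.17 per M.

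Pecam1, Cdh5 and Vwf, the genes that mark the amount of endothelial RNA, overlapped between the groups in normalized counts. Cdh5 (VE-cadherin, ENSMUSG00000031871, chromosome 8) had normalized counts of 247, 179, 125 and 429 in Zfp750_KO and 133, 194 and 177 in controls. Zfp750_KO 6F was far above the others and Zfp750_KO 3F the lowest of all, so the control values lay within the range of the knockouts. Pecam1 (CD31, ENSMUSG00000020717, chromosome 11), an adhesion molecule of endothelium that leukocytes and platelets also carry, had 391, 318, 331 and 562 in Zfp750_KO and 199, 372 and 294 in controls. Vwf (ENSMUSG00000001930, chromosome 6), the multimeric glycoprotein that tethers platelets, had 329, 298, 239 and 705 in Zfp750_KO, against 122, 242 and 193 in controls. Vwf was higher in 3 of the 4 knockouts than in any control, and the lowest knockout stood just under control 4M. Per M of the column total its groups did not overlap, at 22.2 to 67.5 in Zfp750_KO and 9.26 to 20.2 in controls. Differences were fitted with limma on log2(value + 11.9), and passed at a Benjamini-Hochberg adjusted p under 0.05 over all 18141 genes tested. With no term but the group they were 0.39 ± 0.40 (SE) for Cdh5, 0.47 ± 0.29 for Pecam1 and 0.96 ± 0.40 for Vwf, with adjusted p of 1.0, 1.0 and 0.839. Without Zfp750_KO 6F the difference of Cdh5 was 0.09 and that of Pecam1 0.29. Without control 4F they were 0.25 and 0.23, and that of Cdh5 was 0.65 without Zfp750_KO 3F. In bulk RNA, fewer cells of a type and less RNA per cell cannot be told apart.

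The 3 VEGF receptors had different patterns over the libraries. Flt1 (ENSMUSG00000029648, chromosome 5), the decoy-like receptor, had normalized counts of 1898, 2207, 852 and 1130 in Zfp750_KO, against 87.5, 414 and 534 in controls. Every knockout library was above every control, a place held by 3.19% of all genes tested, and control 4F was far below the other two. The mean was 1522 ± 636 (SD, n = 4) in Zfp750_KO and 345 ± 231 (SD, n = 3) in controls, a ratio of 4.41. On the log2 scale the difference was 2.33 ± 0.63 (SE), which did not pass in limma with the group alone (adjusted p = 0.454). With the macrophage score as a covariate it was 2.29 ± 0.56 and narrowly missed the threshold (limma adjusted p = 0.0578). Flt1 depended in size on 1 library: without control 4F the difference with the score was 1.30, and it then passed (limma adjusted p = 0.000727). Without that library 1619 genes passed, against 702 with all libraries. Monocytes and macrophages are also known to carry Flt1. Its slope on the macrophage score was 0.09 on the log2 scale, and the part of these cells in its values was not tested.

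Kdr (ENSMUSG00000062960, chromosome 5) had normalized counts of 70.7, 83.1, 89.0 and 296 in Zfp750_KO and 98.3, 160 and 135 in controls. Knockouts 1M, 2M and 3F were below every control, whereas 6F was above them all. The log2 difference in limma was -0.17 ± 0.48 (SE, adjusted p = 1.0), and -0.60 without Zfp750_KO 6F. Flt4 (ENSMUSG00000020357, chromosome 11), the receptor of the lymphatic lining, had 57.2, 86.0, 77.8 and 169 in Zfp750_KO, against 17.8, 47.3 and 69.7 in controls. The groups overlapped only through Zfp750_KO 1M, which lay under control 7F. Its log2 difference was 0.97 ± 0.46 (SE, limma adjusted p = 0.911), resting on 23 to 246 reads a library. Without control 4F it was 0.56.

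**Figure D1:**
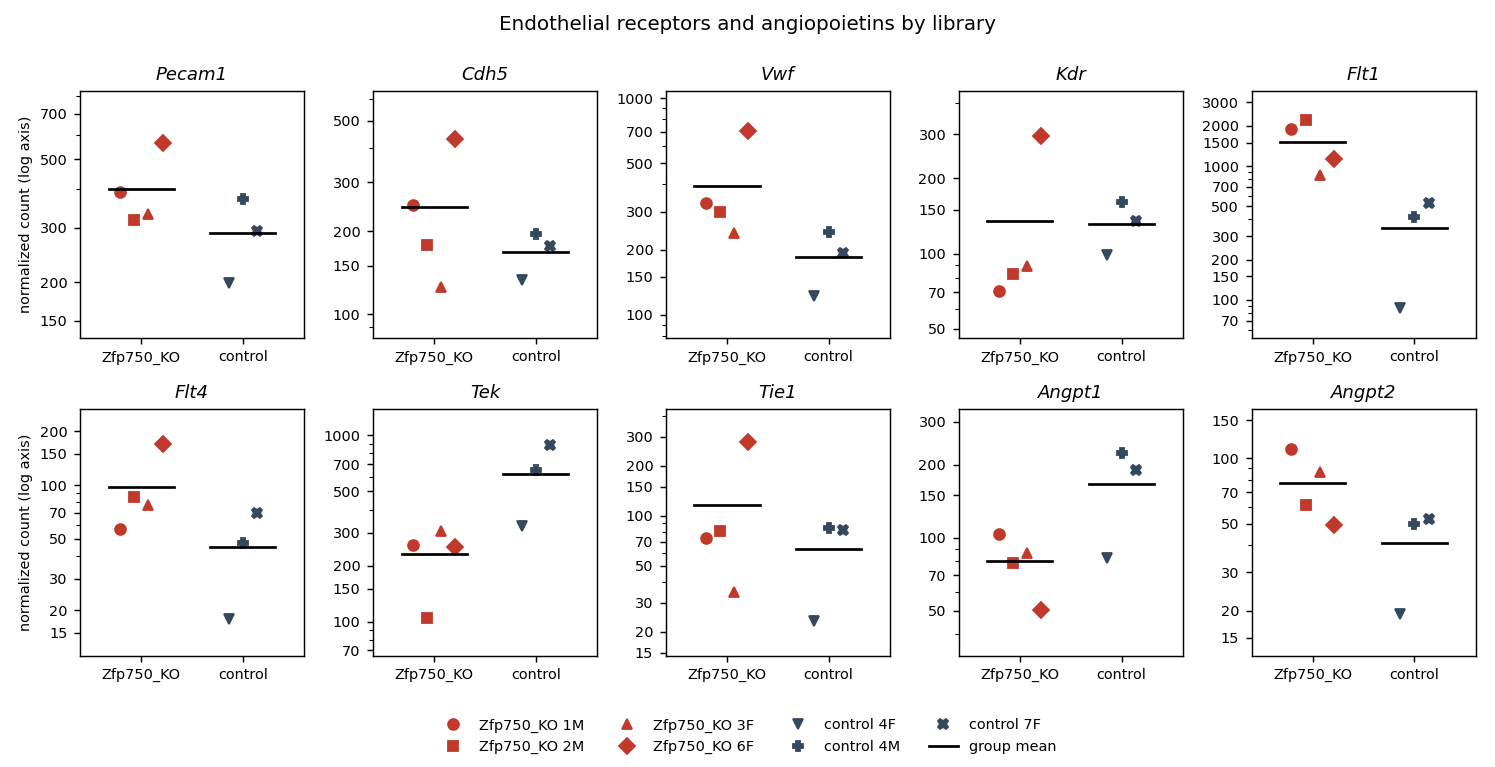
Normalized counts of the 10 genes in each library on a log axis, with Zfp750_KO in red at the left and control in dark blue at the right of each panel, 1 marker shape per library and a black line at the group mean. Flt1 was at 852 to 2207 in the 4 knockouts and at 87.5 to 534 in the 3 controls, and Zfp750_KO 6F was the highest library for 6 of the 10 genes.

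Tek was the 1 member of 10 that passed in any of the 3 fits, in the one with the macrophage score, which called 3.87% of all genes tested. It was lower in Zfp750_KO, while its partner Tie1 overlapped between the groups. Tek (TIE2, ENSMUSG00000006386, chromosome 4) had normalized counts of 259, 104, 307 and 251 in Zfp750_KO, against 327, 649 and 887 in controls. All knockouts were under all controls, as were 3.91% of all genes tested, with a narrow gap between Zfp750_KO 3F and control 4F. Per M of the column total that gap closed, since the highest knockout stood at 28.5 per M and the lowest control at 24.8 per M. The mean was 230 ± 87.4 (SD, n = 4) in Zfp750_KO and 621 ± 281 (SD, n = 3) in controls. With the macrophage score as a covariate Tek fell by 1.48 ± 0.27 (SE) on the log2 scale (limma adjusted p = 0.0184), and with the group alone the difference was -1.37 ± 0.45 (limma adjusted p = 0.618). In the fits with the score it kept its direction without any 1 library (-1.78 to -1.25) but lost the call without Zfp750_KO 3F, Zfp750_KO 6F, control 4M or control 7F (limma adjusted p = 0.0515, 0.0549, 0.0835 and 0.110). RNA of fibroblasts also differed between the libraries, and its part in the values of Tek was not tested.

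Tie1 (ENSMUSG00000033191, chromosome 4), an orphan receptor that pairs with Tek, had normalized counts of 73.8, 81.1, 34.9 and 278 in Zfp750_KO and 23.2, 84.0 and 82.1 in controls. It ranged 11.9-fold over the libraries, with Zfp750_KO 6F at the top and control 4F at the bottom. The log2 difference in limma was 0.58 ± 0.65 (SE, adjusted p = 1.0), 0.08 without Zfp750_KO 6F, 0.10 without control 4F and 0.95 without Zfp750_KO 3F.

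The means of the 2 angiopoietins lay on opposite sides of their controls, at 79.9 ± 22.3 for Angpt1 and 76.9 ± 27.1 for Angpt2 in Zfp750_KO (SD, n = 4), against 166 ± 73.8 and 40.7 ± 18.5 in controls (SD, n = 3). Angpt1 (ENSMUSG00000022309, chromosome 15), the Tek agonist, had normalized counts of 104, 78.9, 86.8 and 50.3 in Zfp750_KO, against 82.8, 224 and 190 in controls. Control 4F lay among the knockouts, and the other controls were above all of them. Angpt2 (ENSMUSG00000031465, chromosome 8), the context-dependent antagonist, had 110, 60.9, 86.8 and 49.6 in Zfp750_KO, against 19.4, 49.9 and 52.9 in controls. The groups met at the lowest knockout, 6F, which was just under control 4M and 7F. Their log2 differences were -0.88 ± 0.38 (SE) for Angpt1 and 0.78 ± 0.37 for Angpt2 in limma with the group alone (adjusted p = 0.868 and 0.929). Without control 4F that of Angpt2 was 0.44. With the macrophage score they were -0.92 ± 0.34 and 0.74 ± 0.33 (limma adjusted p = 0.182 and 0.281). Without control 4F the difference of Angpt1 with the score was -1.38 and passed (limma adjusted p = 0.00694), where 1619 genes passed, against 702 with all libraries.

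Set against each other within a library, the angiopoietins separated the groups by a wide gap. The ratio of Angpt1 to Angpt2 in normalized counts was 0.941, 1.30, 1.00 and 1.01 in Zfp750_KO, against 4.28, 4.50 and 3.59 in controls. The mean ratio was 1.06 ± 0.159 (SD, n = 4) in Zfp750_KO and 4.12 ± 0.471 (SD, n = 3) in controls, a log2 difference of -1.96 ± 0.14 (SE). Leaving out any 1 library gave -2.06 to -1.89. A ratio within a library does not depend on how libraries were scaled. It can depend on the mix of cells in the library, and the part of that mix in this ratio was not tested. The counts behind it were 73 to 171 reads of Angpt1 and 25 to 106 reads of Angpt2 a library. This ratio was picked among 45 pairs of members after their values were seen. Its two-sided exact permutation p was 0.0571, the smallest that 35 splits allow, and gives no support to a pair picked in this way. Of those pairs 17 did not overlap between the groups, and of all 18141 genes tested 16.0% had a ratio to Angpt2 without overlap.

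Ratios to Cdh5 set the members against the endothelial RNA of the same library, as far as Cdh5 stands for it. Tek over Cdh5 was 1.05, 0.584, 2.45 and 0.584 in Zfp750_KO, against 2.46, 3.34 and 5.03 in controls. Kdr over Cdh5 was 0.286, 0.465, 0.712 and 0.690 in Zfp750_KO, against 0.738, 0.824 and 0.764 in controls. Both were lower in every knockout library than in any control, though in both the highest knockout, 3F, and the lowest control, 4F, nearly met. In Zfp750_KO 3F the ratio of Kdr to Cdh5 rests on 79 and 111 reads. Vwf over Cdh5 was higher in every knockout library, at 1.33, 1.66, 1.91 and 1.64 in Zfp750_KO, against 0.919, 1.24 and 1.10 in controls. Flt1 over Cdh5 overlapped, at 7.67, 12.4, 6.81 and 2.63 in Zfp750_KO and 0.657, 2.13 and 3.03 in controls. The ratios of Pecam1, Flt4, Tie1, Angpt1 and Angpt2 to Cdh5 overlapped as well, so that of the ratios of the 9 other members to Cdh5 3 did not overlap and 6 did. Among all genes tested 4.49% had a ratio to Cdh5 without overlap. The ratios given by library were chosen after the values were seen.

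**Figure D2:**
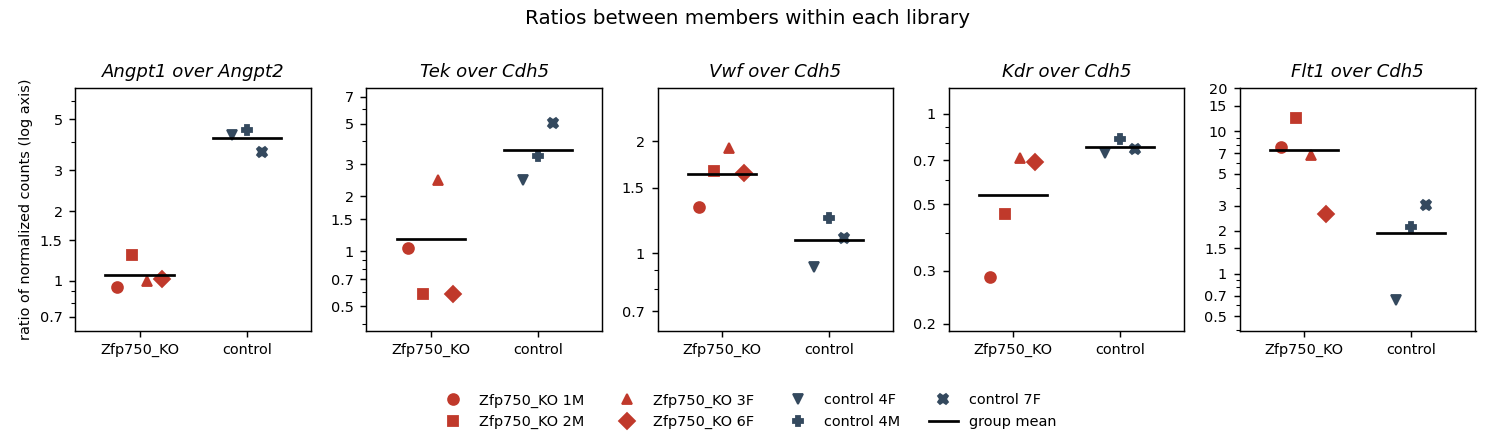
Ratios of normalized counts between members within each library on a log axis, with Zfp750_KO in red at the left, control in dark blue at the right and a black line at the group mean. Angpt1 over Angpt2 was at 0.941 to 1.30 in the 4 knockouts and at 3.59 to 4.50 in the 3 controls, while Flt1 over Cdh5 overlapped.

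All 10 members passed the filter on low values. With the group alone, limma called none of the 18141 genes tested at an adjusted p of 0.05, in either direction (0% of genes), and no member passed. At an unadjusted p under 0.05 there were 3 members, Flt1, Tek and Vwf, of 10, beside 1058 genes or 5.83% of all tested. With the macrophage score 274 genes rose (1.51%) and 428 fell (2.36%), and 1 of the 10 members fell. At an unadjusted p under 0.05 that fit had 5 members, Flt1, Flt4, Tek, Angpt1 and Vwf, beside 18.2% of all genes tested. The median log2 difference of the members was 0.52 with the group alone and 0.45 with the score (7 positive and 3 negative in each), beside 0.02 over all genes tested in both fits. In normalized counts 1 member lay wholly above its controls and 1 wholly below, where 7.10% of all genes tested had no overlap in either direction. Per M of the column total they were Flt1 and Vwf, both above, beside 6.97% of all genes.

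A further limma fit held the mean log2 level of 25 other endothelial genes as a covariate. It gives the members relative to the endothelial RNA of a library, as far as those 25 genes stand for it. That level was 6.40, 6.29, 5.92 and 7.00 in Zfp750_KO and 5.69, 6.35 and 6.15 in controls. The members differed in their slopes on it. Tie1 had a slope of 2.40, Kdr of 1.44, Vwf of 1.43 and Cdh5 of 1.36 on the log2 scale. Flt4 followed with 1.21, Flt1 with 1.08 and Pecam1 with 0.89, then Tek with 0.47, Angpt1 with 0.10 and Angpt2 with 0.01. The differences of Cdh5 and Tie1 then stood at -0.06 ± 0.23 and -0.22 ± 0.27 (SE), those of Tek and Flt1 at -1.53 ± 0.53 and 1.97 ± 0.68, and those of Angpt1 and Angpt2 at -0.92 ± 0.46 and 0.77 ± 0.45. The median over the members was 0.05 in this fit, with 5 positive and 5 negative, beside 0.02 over all genes tested. No member and none of the 18141 genes passed in this fit (limma, 0% of genes), with 951 genes or 5.24% at an unadjusted p under 0.05. Leaving out 1 library ended that for Tek, which passed without Zfp750_KO 3F (-2.21, limma adjusted p = 0.0158), where 4383 genes passed.

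**Figure D3:**
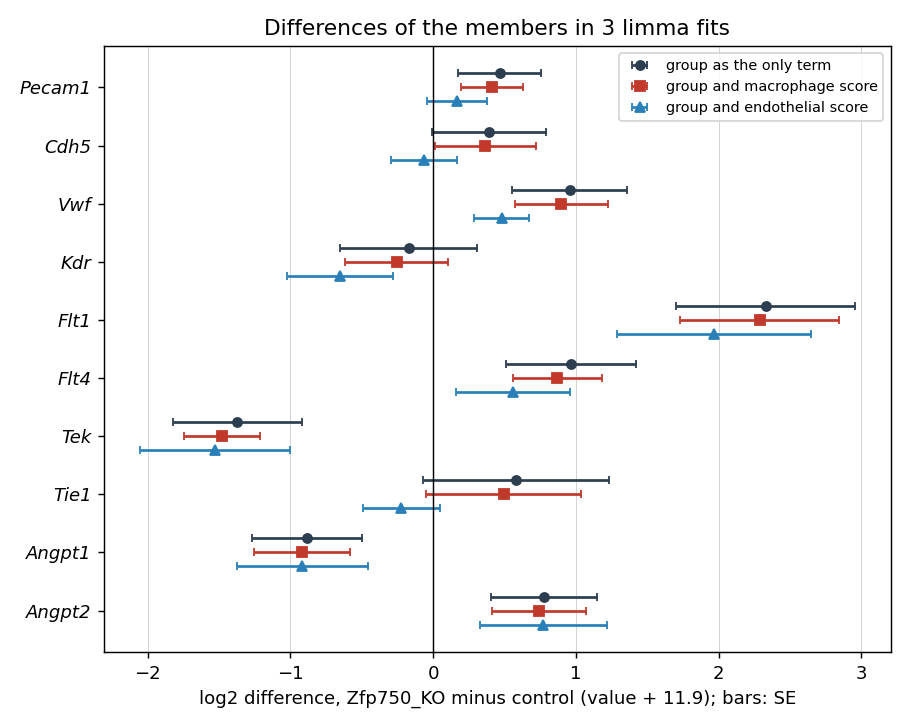
Log2 differences of the 10 genes, Zfp750_KO minus control, with bars of 1 SE, in 3 limma fits: the group as the only term (circles), with the macrophage score (squares) and with the endothelial score (triangles). Flt1 stood between 1.97 and 2.33 and Tek between -1.53 and -1.37 in the 3 fits, while Tie1 changed sign, from 0.58 with the group alone to -0.22 with the endothelial score.

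The order of the levels also differed between the groups. Per kb of exon length, Flt1 led in Zfp750_KO with a mean level of 113 ± 47.1 normalized counts per kb (SD, n = 4), before Pecam1 at 64.3 ± 18.0, Cdh5 at 58.3 ± 31.5 and Tek at 48.8 ± 18.6. In controls Tek led with 132 ± 59.6 per kb (SD, n = 3), before Pecam1 at 46.2 ± 13.9, Cdh5 at 39.98 ± 7.48, Angpt1 at 31.8 ± 14.2 and Flt1 at 25.6 ± 17.1. Every neighbour in either order overlapped in its values with the next, with 1 exception, the step between Tek and Pecam1 in controls. Vwf, Tie1, Angpt2, Angpt1, Kdr and Flt4 followed in Zfp750_KO at 24.4 to 11.9 per kb. Kdr, Tie1, Vwf, Angpt2 and Flt4 followed in controls at 14.5 to 5.46 per kb.

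Across the 7 libraries Pecam1, Cdh5 and Vwf ran closest to each other among the members. The root mean square difference of their centred log2 levels was 0.280 for Pecam1 and Cdh5, 0.324 for Pecam1 and Vwf and 0.327 for Cdh5 and Vwf, against 2.02 for Flt1 and Tek, the most distant of the 45 pairs. Among 12367 other genes, those nearest to Cdh5 by this measure were Adgrf5 (0.184), Ptprb (0.207), 7SK (0.219), Metrn (0.231) and Podxl (0.233). Of these, Adgrf5, Ptprb and Podxl are known to be expressed in endothelium. Nearest to Tek were Fmo2 (0.175), Abca6 (0.191), Tmem100 (0.245), Lrrn4cl (0.265) and Islr2 (0.277). Among those near Angpt1 were Gfpt2 (0.186), 1700019D03Rik (0.217), the tissue factor gene F3 (0.239) and Lpar4 (0.272). Flt1 had no gene as near, the first being Gng2 at 0.559. Flt1 was added to this search after its values were seen.

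Of 30 further genes of the VEGF and angiopoietin pathway tested, 2 rose and 2 fell with the macrophage score, and none passed with the group alone. Of all genes tested 1.51% rose and 2.36% fell with the score. Pgf, placental growth factor and a ligand of Flt1, had normalized counts of 79.0, 87.9, 50.7 and 121 in Zfp750_KO, against 17.8, 21.0 and 37.1 in controls. Every knockout library was above every control, as for Flt1 and for 3.19% of all genes tested. Pgf rose by 1.34 ± 0.31 (SE, limma adjusted p = 0.0469), a call that held in 8 of 16 alternative settings, with adjusted p up to 0.197. Sh2d2a, an adaptor that binds Kdr and is also found in T cells, had 43.7, 55.1, 318 and 198 in Zfp750_KO, against 9.29, 53.8 and 73.1 in controls, with overlap. It rose by 1.14 ± 0.24 (limma adjusted p = 0.0356), and its call held in 10 of 16. Angptl1, an angiopoietin-like secreted protein, had 627, 744, 321 and 120 in Zfp750_KO, against 3126, 963 and 889.9 in controls. All knockouts were under all controls, as for 3.91% of all genes tested. Angptl1 fell by 1.68 ± 0.30 (limma adjusted p = 0.0170), and lost the call only without control 4M or control 7F. Grb14, an adaptor of receptor kinases, fell by 1.25 ± 0.25 (limma adjusted p = 0.0298), and its call held in 9 of the 15 alternatives in which it was tested.

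The main VEGF ligands and co-receptors did not pass. Vegfa had normalized counts of 767, 1349, 936 and 769 in Zfp750_KO and 1042, 889 and 875 in controls, a log2 difference of 0.03 ± 0.19 (SE) with the score (limma adjusted p = 0.966). Vegfc, a ligand of Flt4, was high in Zfp750_KO 1M and 2M (290 and 271) and in control 4F (276), which are the libraries with the lower macrophage scores, and at 51.0 to 107 in the rest. The part of cell mixture in that pattern was not tested. With the score the log2 difference was 0.20 ± 0.25 (SE) for Vegfc, -0.16 ± 0.29 for Vegfd, 0.25 ± 0.17 for the co-receptor Nrp1, 0.23 ± 0.16 for the co-receptor Nrp2 and 0.40 ± 0.31 for Ptprb, the phosphatase that acts on Tek.

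Sox7 and Ackr1, also known from the vessel lining, separated the groups in every library. Sox7, an endothelial transcription factor, had normalized counts of 203, 155, 166 and 161 in Zfp750_KO, against 47.2, 49.9 and 52.9 in controls. It was the 1 gene of 25 other endothelial markers that passed with the score, beside 3.87% of all genes tested. It rose by 1.56 ± 0.19 (SE, limma adjusted p = 0.00382 with the score). Ackr1, a chemokine-binding receptor of venules and of red cell precursors, had 168, 126, 204 and 209 in Zfp750_KO, against 712, 560 and 570 in controls. It was the 1 of 10 genes of vessel activation and Weibel-Palade bodies that passed, beside the same 3.87% of all genes. It fell by 1.76 ± 0.20 (SE, limma adjusted p = 0.00336 with the score). Both kept their calls in all 16 alternatives of that fit, and with the group alone both were at a limma adjusted p of 0.104. Their slopes on the endothelial score were 0.02 for Sox7 and -0.04 for Ackr1, against 1.36 for Cdh5. The part of other cells in their values was not tested. Of the other endothelial markers 18 had positive and 7 negative differences with the score, with a median of 0.23. Without overlap between the groups were 6 of these 25, 5 higher and 1 lower in Zfp750_KO, beside 7.10% of all genes tested.

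**Figure D4:**
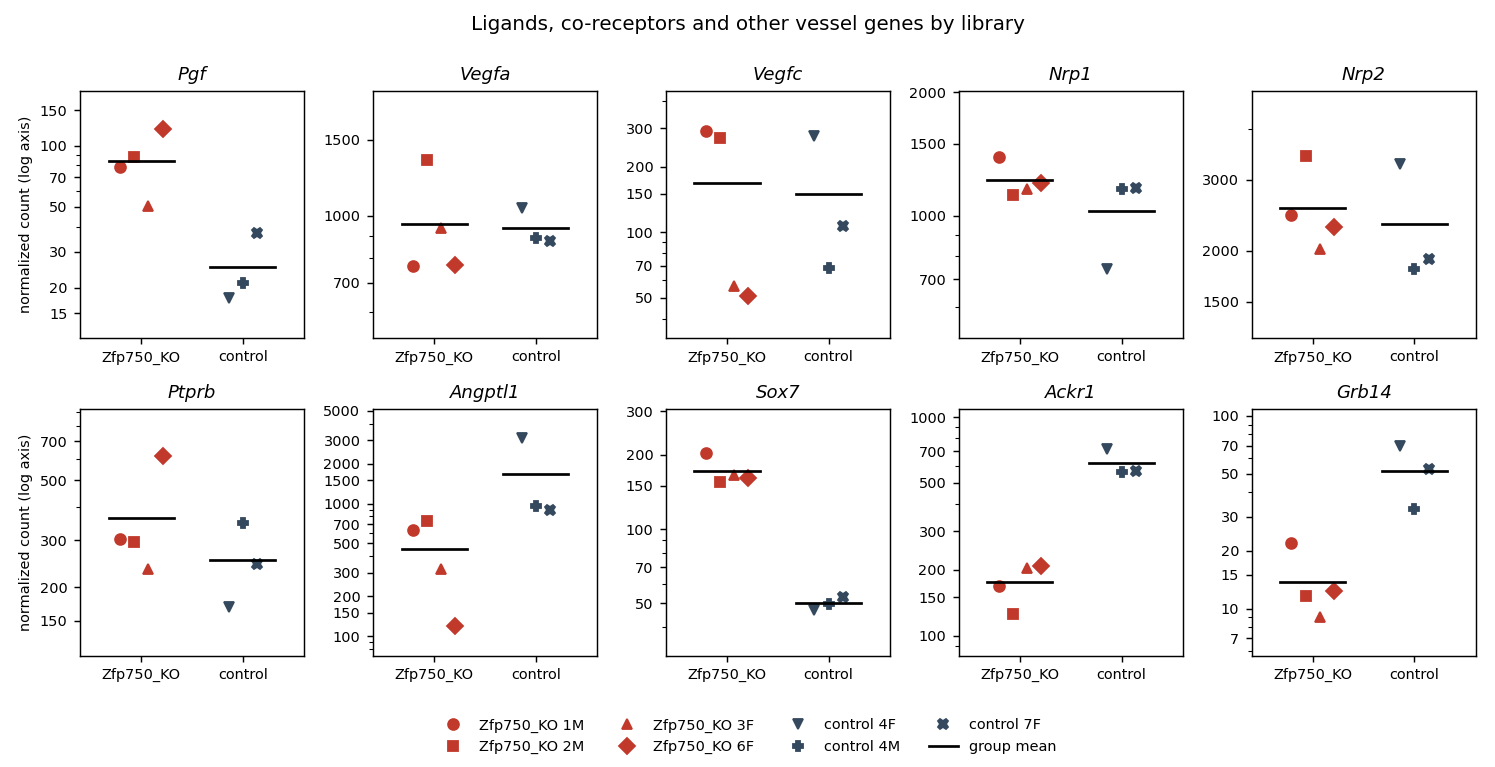
Normalized counts of ligands, co-receptors and other vessel genes in each library on a log axis, with Zfp750_KO in red at the left, control in dark blue at the right and a black line at the group mean. Sox7 was at 155 to 203 in the 4 knockouts and at 47.2 to 52.9 in the 3 controls, and Ackr1 at 126 to 209 in the knockouts and at 560 to 712 in the controls.

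Markers of cells beside or within vessels are given for the same libraries. None of 6 lymphatic genes and none of 6 platelet genes passed in any of the 3 limma fits. The lymphatic genes summed to 124 to 459 per M in Zfp750_KO and 135 to 218 per M in controls. Pdpn was the largest part of that sum, at 86.9 to 433 per M over the libraries, while Prox1 stood at 6.16 to 13.7 per M. Pf4, a platelet chemokine with a slope of 0.94 on the macrophage score, was at 0.466, 0.733, 19.2 and 39.4 per M in Zfp750_KO and 1.06, 19.6 and 21.5 per M in controls. The summed level of 8 platelet genes was 105 to 137 per M in Zfp750_KO and 80.5 to 135 per M in controls, with Ppbp and Treml1 at 0 in some libraries. Itgb3 was the largest part of it, at 57.6 to 103 per M over the libraries. Mural genes rose in 5 of 12 cases with the score, namely Tagln, Acta2, Myh11, Mylk and Mcam, by 1.16 to 2.35. Of all genes tested 1.51% rose, and none of the 12 fell. These 5 all overlapped between the groups in normalized counts, and none of them passed with the group alone. Their slopes on the macrophage score were -0.70 to -0.32. The other 7 did not pass, and in all 8 differences were positive and 4 negative. The negative ones were -0.93 for Kcnj8 and -0.92 for Abcc9, channel subunits of pericytes, -0.87 for Des and -0.45 for Notch3. Their limma adjusted p were 0.0554, 0.0524, 0.103 and 0.430. The positive ones that did not pass were 1.18 for Rgs5, 0.56 for Cspg4 and 0.54 for Pdgfrb (limma adjusted p = 0.0791, 0.127 and 0.594). Rgs5 and Pdgfrb had been set as the defining mural markers. The genes that did not pass are named here after their values were seen. The 12 mural genes summed to 578 to 2483 per M in Zfp750_KO and 688 to 1274 per M in controls. Fibroblast genes fell in 3 of 12 cases with the score, namely Cd34, which small vessels also carry, Pi16 and Mfap5. Of all genes tested 2.36% fell in that fit. Of the 12 differences 10 were negative and 2 positive, 0.54 for Thy1 and 0.38 for Pdgfra, neither of which passed. Pdgfra and Col1a1 (-1.33, not passed) had been set as the defining fibroblast markers. The 12 fibroblast genes summed to 17985 to 112795 per M in Zfp750_KO and 89034 to 180026 per M in controls. The 21 macrophage and monocyte genes, which make up the score, summed to 599 to 11189 per M in Zfp750_KO and 268 to 5961 per M in controls. Keratinocyte genes passed in 0 of 11 cases, and their sum was 324 to 2753 per M in Zfp750_KO and 326 to 3019 per M in controls. The part of these other cells in the values of Angpt1, Flt1 and Pgf was not tested.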

How the data were processed

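Bulk RNA-seq libraries of sorted skin cells were analysed from 1 table of normalized counts that the authors deposited, 1 column per library, whose values are a signal and not raw counts. Per the submitters' processing notes, TopHat2 2.1.0 and Partek 9.0.20.0202 were used. The sources used here give no genome build, normalization method or strand setting, so reads of antisense genes cannot be told apart. Nuclear positions in the table were not used. Columns were assigned to groups by their names, without replicate numbers. Each column proved to be partly whole multiples of 1 step (78.0% to 79.6% of values under 200 reads, within 0.02 reads), so whole reads were not recovered and the count test planned for raw counts was not run. The steps give read totals of 9.09 to 17.1 M. Rows without a gene name (2.82%) kept their identifiers.

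Values were analysed as log2(value + 11.9), the pseudocount being 1 per M of the median column total; differences on this scale understate changes of low genes. Genes with at least 1 per M in at least 3 libraries were tested (18141) with limma 3.58.1 in R 4.3.3 (lmFit, eBayes with a trend, Benjamini-Hochberg adjustment over all genes, threshold 0.05), with the group alone, with the macrophage score (21 genes) and with the endothelial score (25 genes, no member). The fits were tested on simulated data, drawn from 1 mean level per gene with changes added between the groups. Those data held no differing cell mixture, so they cannot show how well the covariate fits work on these libraries. The covariate fits leave 4 residual degrees of freedom and assume 1 slope for both groups. Exon lengths come from GENCODE M21 by gene identifier. Alternatives were other pseudocounts, filters, scalings, moderation, array weights, a term for the letter M or F in the column names, and leaving out each library. The members and lists were chosen with earlier results of these data known. All members are named; from the other lists, genes past the threshold or, failing that, those with the highest mean, beside fixed ligands and co-receptors, of which the text gives most. Some genes that this rule names are not reported here. The fits of list genes under the alternatives were added after seeing the data.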

Additional observations from a re-analysis of the deposited data

Results flagged for a closer look

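In the 4 Zfp750_KO libraries Kdr stood far apart in 1 library: 6F had a normalized count of 296, against 70.7, 83.1 and 89.0 in 1M, 2M and 3F. The gap to the nearest library was 0.919 of the group's range, above Dixon's 95% critical value for 4 samples. Kdr was the 1 member of 10 checked that passed this mark, and chance flags about 1 in 20 groups. Controls, with 3 libraries, were not checked. Zfp750_KO 6F was also the highest library for Pecam1, Cdh5, Vwf, Flt4 and Tie1, and had the highest endothelial score, 7.00.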

How the results depend on the processing

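No paired analysis was possible because the columns of the deposited table carry no replicate numbers of the sample titles. With the group alone, the count of genes called was 0 in every alternative but array weights, where it was 3795; that fit also passed Flt1 (2.06), Tek (-2.18) and Angpt1 (-1.05). With the macrophage score, 702 genes passed, 1337 with array weights, 1303 with a term for the letter M or F, and 169 (without control 4M) to 1619 (without control 4F) when 1 library was left out. With the endothelial score 0 genes passed, 6459 with array weights (Kdr -0.89, Flt1 2.27, Tek -2.36 and Angpt1 -1.16 among them), and 0 to 4383 without 1 library, the last without Zfp750_KO 3F. The cause was not tested. Directions turned in 3 results, none of them called: Kdr with the group alone (-0.60 to 0.028 without 1 library), Pecam1 with the endothelial score (-0.059 with array weights, -0.026 to 0.28 without 1 library) and Cdh5 with it (-0.20 to 0.045 without 1 library). Flt1 with the macrophage score passed in 4 of 16 alternatives (adjusted p 0.000727 to 0.147 in limma), Tek in 12 of 16 (0.00478 to 0.110), Angpt1 in 3 and Vwf in 1. Zfp750 kept its direction, at -1.91 to -0.70 without 1 library. The median difference of all genes moved by less than 0.1 under every scaling. Depth limits Flt4, Tie1 and Angpt2 most, with libraries of 23, 30 and 25 reads.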
